A study of Homo sapiens with 4 samples.

Results

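Serine, one-carbon and asparagine synthesis was followed through 10 genes in U937 cells given shikonin: ASNS, PHGDH, PSAT1, PSPH, SHMT1, SHMT2, MTHFD1, MTHFD2, MTHFD1L and ALDH1L2. Every probe set whose platform symbol was exactly one of these genes was taken, which gave 22 of the 54675 probe sets on the array. U937 is an established human line of monocytic character grown from a lymphoma. The cells had received 100 nM shikonin, a red naphthoquinone of gromwell roots, for 3 h (2 samples), or the solvent dimethyl sulfoxide, DMSO (2 samples), for a time not stated in their labels. Every sample had an array of short oligonucleotides to itself, and the comparison asked how shikonin-treated cells differed from solvent-treated ones. Values are signals on a linear scale.

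Cells make serine from the glycolytic intermediate 3-phosphoglycerate in a row of steps catalysed by PHGDH, a dehydrogenase, PSAT1, an aminotransferase, and PSPH, a phosphatase. SHMT1 in the cytosol and SHMT2 in mitochondria split serine into glycine and a carbon unit carried by folate, which MTHFD2 and MTHFD1L oxidize and release as formate in mitochondria and which MTHFD1 handles in the cytosol for purine, thymidylate and methionine synthesis. ALDH1L2 oxidizes the mitochondrial formyl-folate, and ASNS makes asparagine from aspartate and glutamine. Many of these genes are known targets of ATF4, the transcription factor of the amino acid response, which binds with C/EBP partners to a response element of the form TGATGNAA.

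After shikonin, MTHFD2 and PSAT1 fell modestly, and none of the 8 members bright enough to be tested rose. MTHFD2 fell by 19.3% on its brighter probe set, and PSAT1 fell by 17.8% on one of its probe sets and fell by 14.2% on the other. ASNS was at 83.4% of the DMSO level and missed the threshold (adjusted p = 0.0545). PHGDH, the entry step of serine synthesis, was at 105% of the DMSO level, and the brightest SHMT2 probe set was at 99.8%; neither passed. All of these changes are relative to the rest of the array, since the deposited signals were scaled to a common level. In such bulk samples a smaller share of cells expressing a gene and less of its RNA per cell cannot be told apart.

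Of the 22 probe sets, 14 were bright enough to be tested, and they covered 8 of the 10 genes. Among these 14, 3 were called lower and 0 higher at a limma adjusted p under 0.05, or 21.4% called lower. Over all 32768 probe sets tested, 5.28% were called lower and 3.92% higher. Bright probe sets were called more often: among the brightest 25% of all tested probe sets 10.2% were called lower and 9.08% higher, and 3 of the 11 members among them were called lower. The calls came from 2 genes, so 2 of 8 member genes were called lower by their brightest probe set, against 6.65% of 13554 genes, while 5.05% of these were called higher. The median log2 change of the 8 genes was -0.15, against 0.00 over all genes tested. Both shikonin arrays lay below both DMSO arrays in 9 of the 14 probe sets and above them in 0; over all tested probe sets these shares were 26.1% and 27.0%, and among the brightest 25% the share below was 28.1%. At an unadjusted p under 0.05, 7 of the 14 were lower, against 12.6% of all tested probe sets and 18.8% of the brightest 25%. Probe sets of the same gene, such as both of MTHFD2 and both of PSAT1, count separately in these shares. The members were also chosen with earlier results of these data known, so the shares describe them and are not a test.

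The calls depend on letting the variance follow the signal. Given 1 common variance prior, limma called 0 of 32768 probe sets, although 5970 had an unadjusted p under 0.05, and the smallest adjusted p of a member was 0.227. The number of member probe sets called lower was 2 without DMSO replicate 1 and 1 without shikonin replicate 1 or shikonin replicate 2, with 3.32%, 3.89% and 4.06% of all tested probe sets called lower in these fits. It was 3 without DMSO replicate 2 (3.50% of all), but a PSPH probe set then came in and a PSAT1 probe set dropped out.

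Median signals were close, at 61.0 and 63.7 on the shikonin arrays and 60.5 and 62.2 on the DMSO arrays. Log2 values correlated at 0.980 within each group and at 0.972 to 0.974 between groups. All 16 monocytic and myeloid markers with a value lay above the 40th percentile of every array, and their summed signal was 80555 and 86129 after shikonin, against 82944 and 88225 in DMSO. Of these 16, only PTPRC, the leukocyte antigen CD45, was called, at a log2 change of -0.35. Of 5 T cell markers 1 lay above that percentile on all arrays, and of 4 B cell markers 2 did, with summed signals of 128 and 158 after shikonin, against 182 and 141 in DMSO, for T cells, and of 688 and 625 after shikonin, against 615 and 652 in DMSO, for B cells.

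The promoters of 4 members are shown, all from the ATF4-linked synthesis of serine, carbon units and asparagine. PSAT1 and MTHFD2 were called lower, and ASNS and PHGDH were not. ASNS (log2 change -0.26) still changed about as much as the brighter PSAT1 probe set (-0.22). Whether the response element bears on these changes was not tested. The windows are RefSeq promoters of GRCh38.p14, from 250 bases before to 50 bases after the start site, written 5' to 3' on the gene's strand. Capitals mark matches to TGATGNAA, searched on both strands.
ASNS (chr7:97872359-97872658, minus strand): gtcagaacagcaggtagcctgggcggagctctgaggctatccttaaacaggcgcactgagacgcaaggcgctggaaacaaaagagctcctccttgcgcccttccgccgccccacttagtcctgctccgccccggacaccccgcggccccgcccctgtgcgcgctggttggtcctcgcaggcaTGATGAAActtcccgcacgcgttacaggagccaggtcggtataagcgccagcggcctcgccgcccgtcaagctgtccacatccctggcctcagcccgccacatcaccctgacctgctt
PSAT1 (chr9:78296875-78297174, plus strand): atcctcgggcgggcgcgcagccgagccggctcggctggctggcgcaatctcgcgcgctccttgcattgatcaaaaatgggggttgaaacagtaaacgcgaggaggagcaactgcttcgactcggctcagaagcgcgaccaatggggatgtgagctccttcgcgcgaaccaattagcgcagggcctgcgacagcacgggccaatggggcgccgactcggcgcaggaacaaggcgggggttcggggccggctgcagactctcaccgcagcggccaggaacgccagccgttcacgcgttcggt
MTHFD2 (chr2:74198365-74198664, plus strand): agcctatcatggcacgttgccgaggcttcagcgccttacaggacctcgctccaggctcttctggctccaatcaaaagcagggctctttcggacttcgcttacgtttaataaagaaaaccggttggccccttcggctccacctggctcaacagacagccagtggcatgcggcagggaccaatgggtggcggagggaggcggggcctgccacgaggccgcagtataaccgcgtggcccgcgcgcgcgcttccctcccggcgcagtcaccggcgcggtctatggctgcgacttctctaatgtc
PHGDH (chr1:119711684-119711983, plus strand): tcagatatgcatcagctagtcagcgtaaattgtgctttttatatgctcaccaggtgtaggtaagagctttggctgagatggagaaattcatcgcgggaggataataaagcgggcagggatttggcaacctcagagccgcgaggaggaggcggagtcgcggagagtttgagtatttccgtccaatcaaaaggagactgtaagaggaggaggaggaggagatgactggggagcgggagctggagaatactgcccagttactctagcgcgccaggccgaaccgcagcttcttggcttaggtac
The ASNS window shown held 1 match, TGATGAAA, from base -68 to base -61 counted from its start site. This match lies within what is known from earlier work as the nutrient-sensing element of this promoter. Another ASNS window, for a different start site, held no match and is not shown. The PSAT1, MTHFD2 and PHGDH windows held no match, which says only that these letters are not in these windows. In all, 7 of the 10 members matched the promoter table with 11 windows. ASNS and MTHFD1L had a match in at least 1 window, so 2 of 7 genes did, against 4.46% of the 27305 genes with a window of the same length. MTHFD1L had TGATGCAA in 3 overlapping windows, which share the same stretch of DNA. For PSPH, SHMT2 and ALDH1L2 there was no window, and those of SHMT1, MTHFD1 and MTHFD1L are not shown.

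MTHFD2, the mitochondrial methylene-folate dehydrogenase and cyclohydrolase, had the smallest p of the members. Its brighter probe set gave signals of 8428 and 8589 on the shikonin arrays, against 10670 and 10420 on the DMSO arrays. The groups were far apart compared with their spread: the arrays of a group differed by 0.027 (shikonin) and 0.034 (DMSO) on the log2 scale, while every shikonin array lay 0.28 to 0.34 below every DMSO array. The log2 change was -0.31 (SE 0.051, 95% confidence interval -0.42 to -0.19, limma adjusted p = 0.00663). This call held without any 1 of the 4 arrays, with adjusted p from 0.0174 to 0.0435. The second probe set of MTHFD2, of a type that can bind related transcripts, gave 486 and 533 after shikonin, against 645 and 705 in DMSO. It also showed no overlap of the groups, at a log2 change of -0.40 (SE 0.11), but missed the threshold (adjusted p = 0.0586). RefSeq lists 7 pseudogenes named after MTHFD2, and which copy adds to this probe set is not known.

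PSAT1, which transfers an amino group from glutamate to form phosphoserine, fell on both of its probe sets. The brighter one gave 10140 and 10134 after shikonin, against 12161 and 11475 in DMSO. The shikonin arrays were nearly identical and lay below both DMSO arrays, at a log2 change of -0.22 (SE 0.053, 95% confidence interval -0.34 to -0.10, adjusted p = 0.0326). The other gave 6053 and 6116 after shikonin, against 6999 and 7824 in DMSO, at a log2 change of -0.28 (SE 0.065, adjusted p = 0.0280). Both calls were near the threshold. The brighter probe set lost the call without DMSO replicate 1, shikonin replicate 1 or shikonin replicate 2 (adjusted p = 0.144, 0.129 and 0.127), and the other without DMSO replicate 2, shikonin replicate 1 or shikonin replicate 2 (0.128, 0.0980 and 0.0797), while their log2 changes lay between -0.18 and -0.29 in these fits. With no filter on dim probe sets neither passed (0.0959 for the brighter, 0.0795 for the other). RefSeq lists 4 PSAT1 pseudogenes. Both PSAT1 probe sets have names ending in _s_at, so PSAT1 had no value when probe sets of the _x_at and _s_at types were left out.

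PSPH, the last enzyme of serine synthesis, was lower on both bright probe sets on all shikonin arrays without passing the test. The brighter one gave 2161 and 2166 after shikonin, against 2498 and 2323 in DMSO (log2 change -0.15, adjusted p = 0.216). The other gave 1358 and 1315 after shikonin, against 1771 and 1507 in DMSO (log2 change -0.29, adjusted p = 0.0897). In the second case the DMSO arrays differed from each other by 0.23 on the log2 scale, close to the size of the change itself. This probe set passed only with the array that was lower in DMSO left out (replicate 2, adjusted p = 0.0402) among the fits that left out 1 array. PSPH has a named pseudogene, PSPHP1, so part of either signal may come from it. A further PSPH probe set was dim and was not tested. It lay the other way, with 33.0 and 32.5 after shikonin, against 26.9 and 26.3 in DMSO.

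PHGDH, the dehydrogenase of the first step of serine synthesis, gave 7331 and 7432 after shikonin, against 6589 and 7516 in DMSO. The groups overlapped, since DMSO replicate 2 was above both shikonin arrays. Its log2 change was 0.069 (95% confidence interval -0.086 to 0.22, adjusted p = 0.600), so a fall of the size measured for PSAT1 lay outside the interval. A probe set listed for PHGDH together with MZT2A and MZT2B, and therefore not a member, had a log2 change of 0.013.

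**Figure D1:**
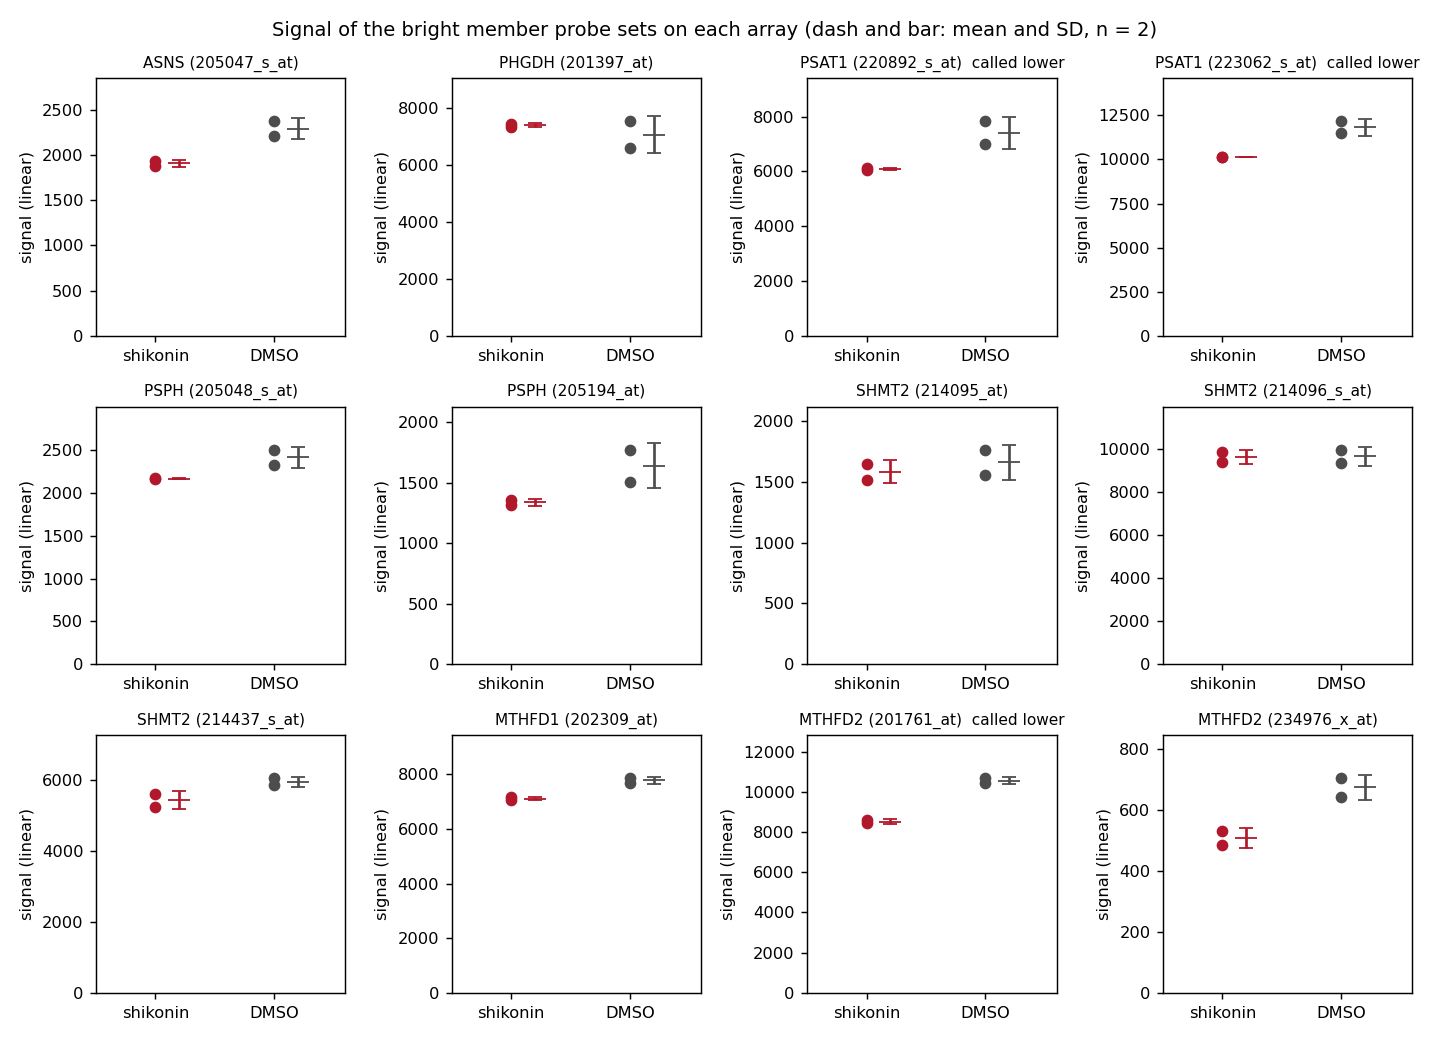
Signal (linear, from 0) of the 12 tested member probe sets that exceeded the 40th percentile on all 4 arrays, with a point for each array and a dash with bar for the mean and SD (n = 2 in each group). The shikonin points lie below both DMSO points for MTHFD2, PSAT1, PSPH, ASNS and MTHFD1 and overlap them for PHGDH and for 2 of the 3 SHMT2 probe sets.

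ASNS, asparagine synthetase, gave 1934 and 1882 after shikonin, against 2208 and 2372 in DMSO. Both shikonin arrays were low, 0.19 to 0.33 below the DMSO arrays on the log2 scale. The log2 change of -0.26 (SE 0.072, 95% confidence interval -0.42 to -0.099) had an adjusted p of 0.0545. It passed when the dimmest 60% of probe sets were removed (adjusted p = 0.0335) and in a fit over gene means (0.0424), and missed the threshold without any 1 of the 4 arrays (0.0717 to 0.220). A second ASNS probe set was dim on all arrays (4.40 and 1.17 after shikonin, 1.29 and 1.39 in DMSO) and was not tested. RefSeq lists 5 ASNS pseudogenes.

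SHMT2, the mitochondrial serine hydroxymethyltransferase that feeds MTHFD2, did not pass on any of its 3 probe sets. The brightest gave 9393 and 9846 after shikonin, against 9336 and 9941 in DMSO, with overlapping groups and a log2 change of -0.0026 (95% confidence interval -0.13 to 0.12). The next gave 5239 and 5597 after shikonin, against 5835 and 6036 in DMSO, without overlap (log2 change -0.13, adjusted p = 0.214). The dimmest gave 1515 and 1646 after shikonin, against 1555 and 1760 in DMSO, with overlap (log2 change -0.067). The probe sets thus ran from -0.13 to -0.0026.

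MTHFD1, the cytosolic enzyme that combines several folate activities, gave 7068 and 7158 after shikonin, against 7700 and 7859 in DMSO. Its groups did not overlap, and arrays within a group differed by at most 0.029 on the log2 scale, but the change was small at -0.13 (SE 0.052, adjusted p = 0.168). It passed under quantile normalization (log2 change -0.21, adjusted p = 0.0203). Its other probe set was dim and was not tested.

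SHMT1, the cytosolic counterpart of SHMT2, could not be measured well from its own probe sets. They gave 25.5 and 47.2, and 43.6 and 34.7, after shikonin, against 38.4 and 41.9, and 23.5 and 38.1, in DMSO, near the 40th percentile of the arrays (34.8 to 37.4). Signals overlapped, and the log2 changes of -0.15 and 0.29 had intervals from -1.25 to 0.95 and from -0.84 to 1.42. Brighter signal came from probe sets listed for SHMT1 together with the microRNA gene MIR6778. One of them gave 1353 and 973 after shikonin, against 1474 and 1654 in DMSO (log2 change -0.44, adjusted p = 0.0858), without overlap but with shikonin replicate 2 well below replicate 1. The other gave 564 and 552 after shikonin, against 531 and 545 in DMSO (log2 change 0.052, adjusted p = 0.824), so these probe sets disagreed in direction.

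MTHFD1L, the mitochondrial formyl-folate synthetase that releases formate, and ALDH1L2 had only dim probe sets of their own. The MTHFD1L pair ran from 5.32 to 40.7 after shikonin and from 26.7 to 58.6 in DMSO, and the 3 ALDH1L2 probe sets from 0.853 to 29.8 after shikonin and from 2.03 to 48.9 in DMSO. All 8 untested member probe sets exceeded the 40th percentile on at most 1 array, so no level above background was shown for them, and no change is drawn from them. Of the 8, 2 had both shikonin arrays above DMSO and 2 had both below. Probe sets listed for MTHFD1L together with LOC101928195 and LOC100996643 were bright: one gave 5407 and 5175 after shikonin, against 5008 and 5192 in DMSO (log2 change 0.053), and the other 805 and 719 after shikonin, against 793 and 860 in DMSO (log2 change -0.12), both with overlap and neither past the test.

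**Figure D2:**
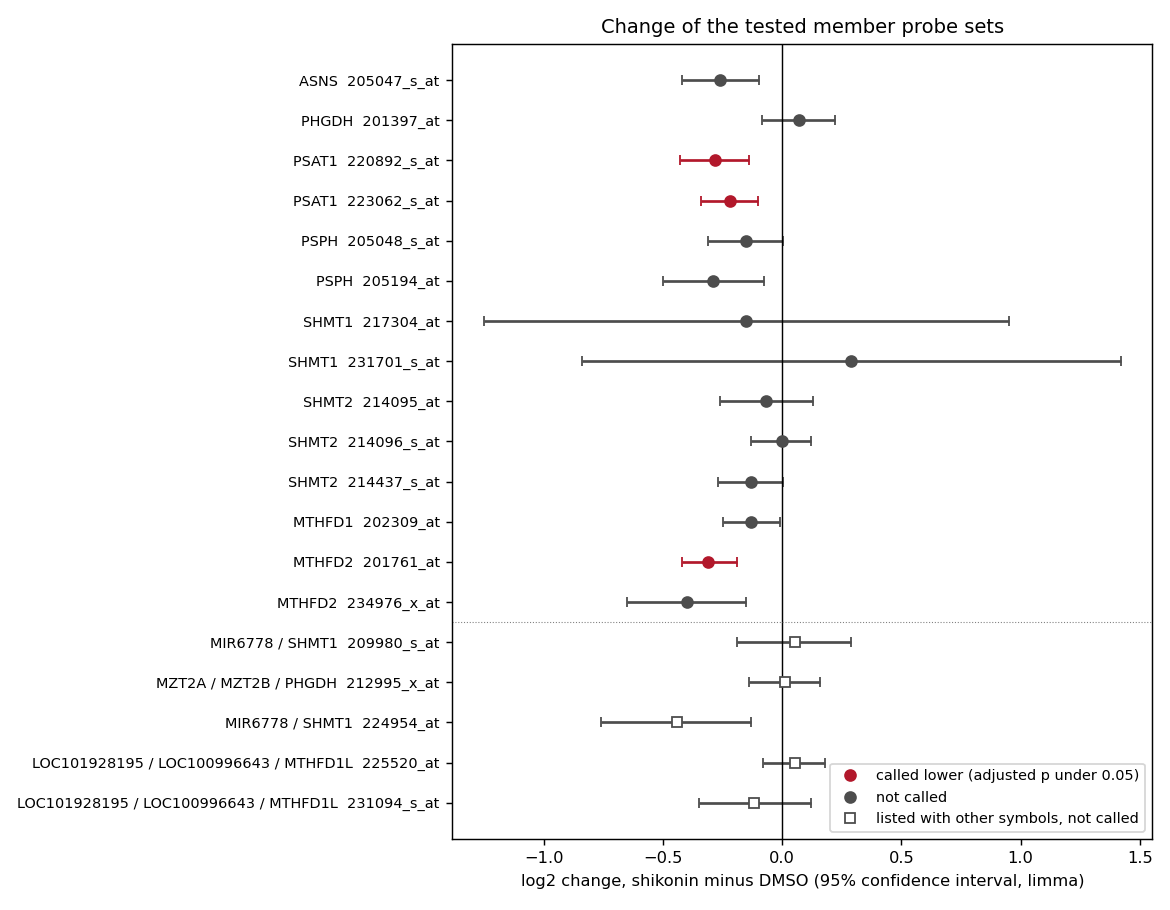
Log2 change (shikonin minus DMSO, horizontal axis) with its 95% confidence interval for the 14 tested member probe sets, and below the dotted line for 5 probe sets that list a member with other symbols. The 3 red points, MTHFD2 and both PSAT1 probe sets, were called lower, and the SHMT1 intervals are several times wider than those of bright probe sets.

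Because arrays can differ in brightness, the log2 ratio of 2 probe sets on the same array was also taken, for 7 pairs chosen after their values were seen and without a test; only the shift of a ratio is read, since its level depends on the probes. The ratio of PSAT1 over PHGDH was 0.47 and 0.45 after shikonin, against 0.88 and 0.61 in DMSO. That of MTHFD2 over SHMT2 was -0.16 and -0.20 after shikonin, against 0.19 and 0.068 in DMSO. For these the later enzyme was lower relative to the earlier one by 0.29 and 0.31 on average, since the ratios shifted by -0.29 and -0.31. PSAT1 over PSPH ran the other way along the pathway, with 2.23 and 2.22 after shikonin, against 2.28 and 2.30 in DMSO, so the earlier enzyme was the lower one relative to the later by a shift of -0.066. In all, 6 of the 7 ratios were lower on both shikonin arrays than on both DMSO arrays. The pairs reuse the same genes, and no share over other pairs was taken, so this count adds nothing to the single signals. Each gene was read by its brightest tested probe set. For SHMT2 this was the one at -0.0026, while another SHMT2 probe set changed by -0.13. For PSPH it was the one at -0.15, while the other tested PSPH probe set changed by -0.29. The PSAT1 probe set used, at -0.22, lay between these, so the direction of PSAT1 over PSPH depends on the PSPH probe set. The ratio of ASNS over MTHFD2 was -2.12 and -2.18 after shikonin, against -2.27 and -2.13 in DMSO, and its groups overlapped.

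Neighbouring pathways were described from 6 further lists, whose counts are to be read against the 5.05% of all tested genes called higher and the 6.65% called lower. A single call in a list of 12 to 15 genes is near those shares and describes the gene, not its list. Of 15 tested genes of folate uptake, retention and cycling, 1 rose and 0 fell, with a median log2 change of 0.022. The gene called was SLC19A1, the reduced folate carrier that brings folate into the cell, with 4196 and 4189 after shikonin, against 3104 and 3078 in DMSO (log2 change 0.44, SE 0.059, adjusted p = 0.00253). The groups were well apart. Of its 5 other tested probe sets 1 also rose (0.35) and the rest ran from 0.018 to 0.28 without passing. Its call was lost with the mean of its probe sets (0.24, adjusted p = 0.156) and without probe sets of the _x_at and _s_at types (0.14, adjusted p = 0.479). Of 12 tested genes of de novo purine synthesis, which consumes formyl-folate, 1 rose: PFAS, with 2633 and 2370 after shikonin, against 1938 and 2082 in DMSO (log2 change 0.31, adjusted p = 0.0397). The remaining 11 did not pass, and the median was 0.033. PFAS lost the call without DMSO replicate 1, DMSO replicate 2 or shikonin replicate 1 (adjusted p = 0.145, 0.0505 and 0.193).

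Of 14 tested genes that cleave glycine or use serine and glycine, 3 fell and 2 rose, with a median of 0.037. The ones that fell were CTH, CBS and AMT. CTH and CBS move the sulfur of homocysteine onto the carbons of serine to make cysteine. AMT, a subunit of the glycine cleavage system, is named although it lay outside the rule for named genes. CTH gave 1682 and 1598 after shikonin, against 2358 and 2200 in DMSO (log2 change -0.47, adjusted p = 0.00536), and its other probe set fell too (-0.37). CBS gave 941 and 967 after shikonin, against 1210 and 1393 in DMSO (log2 change -0.44, adjusted p = 0.0215). The other CBS probe sets did not pass, at -0.31 (adjusted p = 0.0589) and, on a dim one with overlapping groups, -0.77 (0.429), and the mean of the 3 missed the threshold (-0.51, adjusted p = 0.0855). On their brightest probe sets both genes had all shikonin arrays low, and CBS lost the call without DMSO replicate 2 or shikonin replicate 1 (adjusted p = 0.109 and 0.0686). AMT had a log2 change of -0.63 (adjusted p = 0.0418), a call that each fit with 1 array left out lost (0.0727 to 0.167). ALAS1, which joins glycine with succinyl-CoA as the first step of haem synthesis, rose most in this list, with 5500 and 5721 after shikonin, against 3182 and 3256 in DMSO (log2 change 0.80, SE 0.059, adjusted p = 0.000103). GCSH, the lipoyl carrier of glycine cleavage, rose by 0.27 on the log2 scale (adjusted p = 0.0225) and was not called in any fit that left out 1 array (0.0544 to 0.126).

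Among 14 tested genes of the methionine cycle, 1 rose and 1 fell, with a median of 0.13. AMD1, which commits S-adenosylmethionine to polyamines, rose by 0.22 on the log2 scale, and MAT2B, the regulatory subunit of S-adenosylmethionine synthetase, changed by -0.26 (adjusted p = 0.0374 and 0.0323). AMD1 was not called in any fit that left out 1 array (0.0932 to 0.182), and MAT2B was not called without DMSO replicate 2, shikonin replicate 1 or shikonin replicate 2 (0.150, 0.0839 and 0.130). These fits read each gene by its brightest probe set. The other AMD1 probe set was also called higher in the fit of all 4 arrays (log2 change 0.28, adjusted p = 0.0155). The mean of the AMD1 probe sets passed too (0.25, adjusted p = 0.0202). A dimmer MAT2B probe set gave 31.6 and 9.62 after shikonin, against 97.4 and 73.9 in DMSO, and did not pass (log2 change -1.73, adjusted p = 0.0668). The size of the MAT2B change therefore rests on the probe set, although the mean of both still passed (adjusted p = 0.0131). Of 13 tested genes for glutamine, aspartate, alanine and proline, 1 rose and 0 fell, with a median of 0.012. The gene called was PYCR3, a cytosolic pyrroline carboxylate reductase, with 232 and 272 after shikonin, against 135 and 148 in DMSO (log2 change 0.79, adjusted p = 0.0352). Each fit that left out 1 array lost this call (0.0629 to 0.167).

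The list of eIF2 alpha kinases, ATF4 and its partners overlaps genes already known to fall in these data and is given for comparison only. Of 23 tested, 9 fell and 2 rose, with a median of -0.17. TRIB3, a pseudokinase induced by ATF4, gave 4118 and 3704 after shikonin, against 9443 and 10129 in DMSO (log2 change -1.32). CEBPB, a C/EBP factor that pairs with ATF4, had a log2 change of -0.87, VLDLR, a lipoprotein receptor, of -0.77 and JDP2, a repressor of the AP-1 family, of -0.53, although a second JDP2 probe set lay at -0.0063 and the mean of both did not pass (-0.27, adjusted p = 0.178). On the brightest probe sets, the changes of MTHFD2 (-0.31) and PSAT1 (-0.22) were smaller in size than each of these 4. These 4 were named for having the smallest p in the list, and the differences were not tested. With the mean of each gene's probe sets, MTHFD2 was at -0.35 and JDP2 at -0.27, so their order turned. The ATF4 transcript itself gave 8702 and 8339 after shikonin, against 9140 and 9266 in DMSO, without overlap but not past the test (log2 change -0.11, adjusted p = 0.235); it passed under quantile normalization (-0.20, adjusted p = 0.0325). DDIT3, the pro-apoptotic factor CHOP, was at 0.33 and did not pass (adjusted p = 0.269). The risers were EIF2S1, the alpha subunit of eIF2 (0.24), and GCN1, an activator of the amino acid sensor kinase (0.31), both named outside the rule and neither called in any fit that left out 1 array. With no filter on dim probe sets, PFAS, GCSH, AMT, AMD1, MAT2B, PYCR3, EIF2S1 and GCN1 were not called (adjusted p from 0.0551 to 0.0863), and under quantile normalization AMD1, AMT and EIF2S1 were not (0.0544 to 0.0656). The arrays measure transcripts and not the translation of ATF4, and its part in the members' values was not tested.

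**Figure D3:**
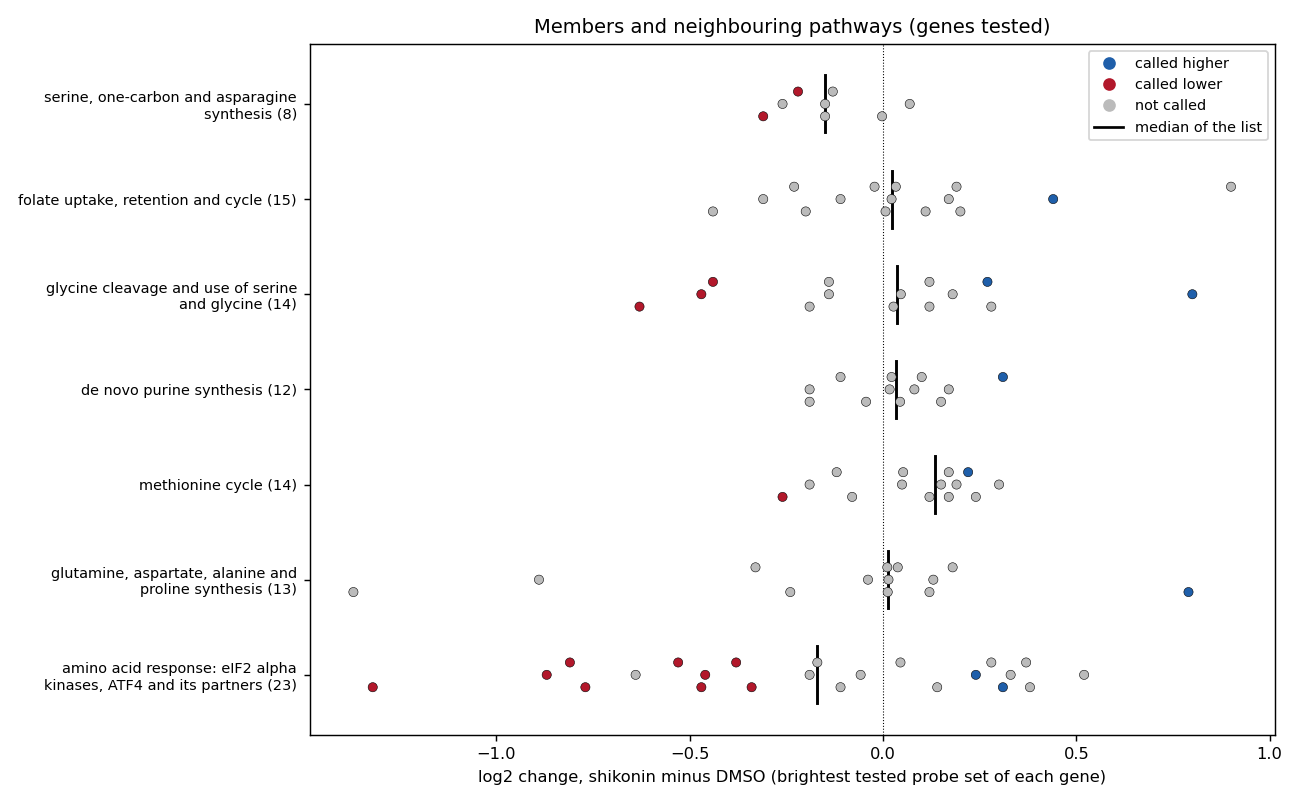
Log2 change (shikonin minus DMSO, horizontal axis) of each tested gene, by its brightest probe set, in the member list and 6 further lists, with the number tested in brackets and a bar at the median. The 8 member genes lie between -0.31 and 0.069, while the amino acid response list runs from -1.32 (TRIB3) to 0.52.

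**Figure D4:**
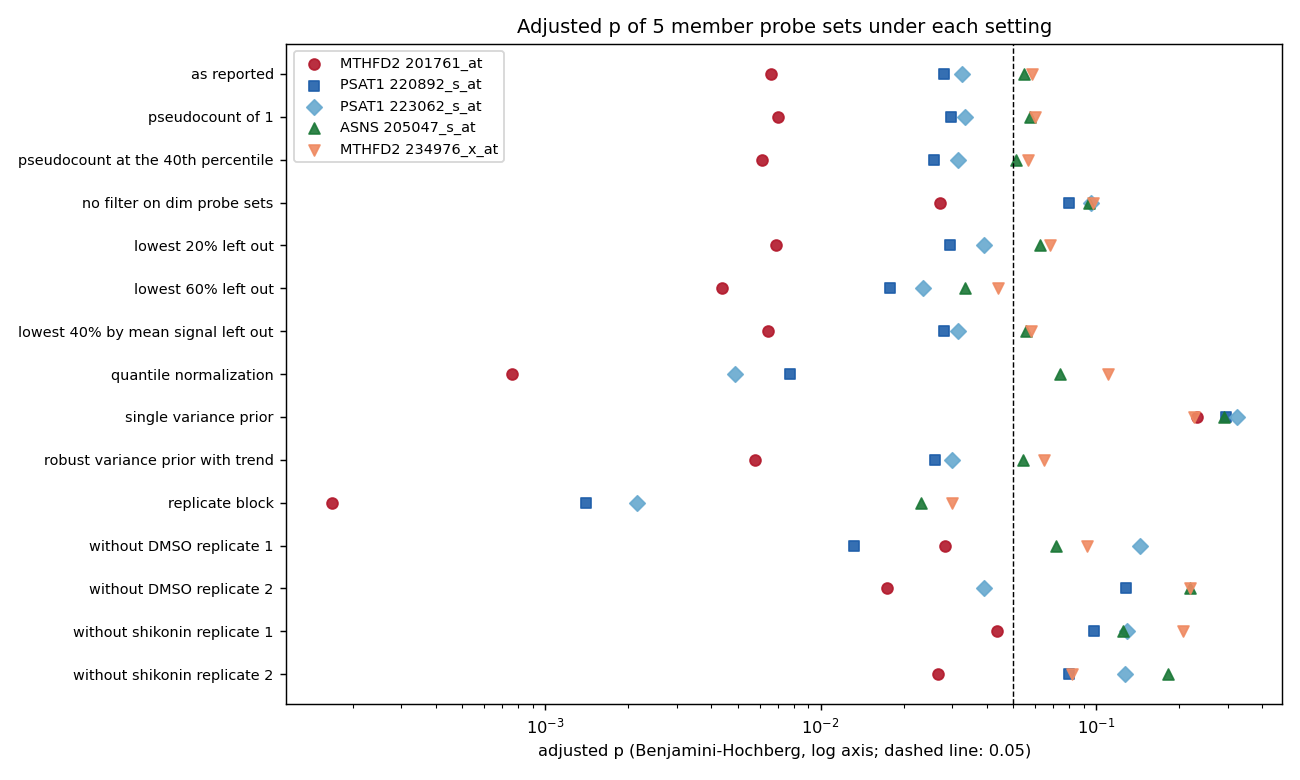
Adjusted p (log axis) of 5 member probe sets under each setting of the analysis, with a dashed line at 0.05. The brighter MTHFD2 probe set stays left of the line except with a single variance prior (0.232), while both PSAT1 probe sets and ASNS cross it.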

How the data were processed

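Biotin-labelled cRNA was made from total RNA of U937 cells by 3'-biased amplification, per the labels' protocols, and read on 4 Affymetrix U133 Plus arrays, 2 for each group. Samples are numbered in their labels without mention of separate cultures, so the p-values reflect a spread that may be technical. The authors deposited an intensity for each probe set on a linear scale, made with software not given in the sources used here. After trimming 2% at each end, every array's mean signal was 500.1. Detection calls did not enter.

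Probe sets were named from the platform annotation; 41097 had exactly 1 symbol, and none with several was assigned to a single gene. Signals became log2(signal + 9.94), the 20th percentile of all values, so folds of dim genes are understated. The 62 controls and the dimmest 40% of probe sets by mean log2 value were left out. Shikonin was compared with DMSO in limma 3.58.1 (R 4.3.3; lmFit, eBayes with its trend option), two-sided, with Benjamini-Hochberg adjustment across the 32768 remaining probe sets and a threshold of 0.05. A gene was represented by its brightest tested probe set. With 2 residual degrees of freedom (7.1 prior), the number of arrays limits precision. The procedure was tested on simulated data whose variance followed the signal, as the fit assumes, so that test could not check this assumption.

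Named genes were all members, up to 4 called genes of each further list by smallest p (2 where none was called), ATF4, DDIT3 and TRIB3. Members and lists were chosen with earlier results of these data known. Promoters came from RefSeq (GRCh38.p14), credited with that build; the build of the array annotation was not stated, and protein sequences were not used here. Alternatives covered the pseudocount, filter, normalization, variance model, replicate block, single arrays left out and the choice of probe set.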

Additional observations from a re-analysis of the deposited data

How the results depend on the processing

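The number of member probe sets called lower was 3 as reported. It was 1 with no filter on dim probe sets, 5 with the lowest 60% left out, 4 under quantile normalization, 0 with a single variance prior and 6 with the replicate number as a block, and it ran from 1 to 3 when 1 array was left out; no setting called a member higher. The share of all tested probe sets called lower, 5.28% as reported, moved too: it was 2.03% with no filter, 9.55% with the lowest 60% left out, 4.79% under quantile normalization, 0% with a single variance prior and 7.95% with the block. The cause of these shifts was not tested. The labels give the groups the same replicate numbers, but deviations of same-numbered arrays correlated at only 0.022, so the numbers were not taken to pair samples; with the block the called probe sets were those of ASNS (adjusted p = 0.0231), MTHFD2, PSAT1 and 1 of PSPH. Ranking the filter by mean linear signal in place of the mean log2 value, an alternative chosen after seeing the data, called 3 members lower and moved the calls over all probe sets to 3012, against 3015 as reported; the ranking that is reported was settled with both outputs known. The median log2 change of the member genes stayed between -0.14 and -0.19 in every alternative. Without probe sets of the _x_at and _s_at types it covered only 6 member genes, since PSAT1 and ASNS dropped out. Signs turned only among members that had not passed. PHGDH changed by -0.000456 under quantile normalization, which shifted bright members by a median of -0.067. With 1 array left out, PHGDH ran from -0.026 (without DMSO replicate 1) to 0.16, SHMT2 from -0.048 to 0.043 (0.043 without DMSO replicate 2 and 0.031 without shikonin replicate 1) and SHMT1 from -0.50 to 0.19 (without shikonin replicate 1). SHMT1 was at 0.067 with the mean of its probe sets.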
